A study of Mus musculus with 141 samples.

Results

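Expression of the nuclear genes for mitochondrial ribosomal proteins was examined in liver, lung and kidney of the Collaborative Cross (CC), recombinant inbred strains that descend from common founders. All gene symbols that begin with *Mrpl* or *Mrps* followed by a digit were taken, which gave 78 of the 24423 genes in the files, 49 with a large-subunit symbol and 29 with a small-subunit symbol. The groups were 47 liver, 47 lung and 47 kidney libraries from 47 strains, with 1 male mouse per strain aged 8 to 12 weeks, and every mouse had spent 6 hours a day in a clear-air chamber over 2 weeks. Tissue pieces were whole and contained several cell types, and with 1 mouse per strain the strain and the individual cannot be told apart.

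The mitochondrial ribosome translates the few messenger RNAs that mitochondrial DNA encodes, all of them for membrane subunits of the respiratory chain and the ATP synthase. Its ribosomal RNAs come from mitochondrial DNA, whereas all of its proteins are encoded in the nucleus, made in the cytosol and imported. Some of these proteins have bacterial counterparts and others were added in the mitochondrial lineage. Liver and kidney cortex are rich in mitochondria, and lung is not among the tissues known for high mitochondrial content. *Mrps18a* and *Mrps30* carry small-subunit symbols although their proteins sit in the large subunit, and the protein of *Mrps36* is an adaptor of the alpha-ketoglutarate dehydrogenase complex rather than a ribosomal protein.

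Promoters of 4 members are given here because their values carry the main findings. *Mrpl12* and *Mrps18b* had the largest differences between liver and lung, *Mrps6* stood apart in kidney, and *Mrpl9* had the strain values that were most alike across tissues. The sequences are RefSeq promoters on GRCm38.p6, each from 250 bases before to 30 bases after the annotated start, read in the direction of the gene. Capitals mark matches to GCGCANGCG, the letters searched for nuclear respiratory factor 1 (NRF-1, a regulator of nuclear genes for mitochondrial proteins), and to GGGCGG, those searched for SP1, on either strand.
Mrpl12 (chr11:120484387-120484666, plus strand): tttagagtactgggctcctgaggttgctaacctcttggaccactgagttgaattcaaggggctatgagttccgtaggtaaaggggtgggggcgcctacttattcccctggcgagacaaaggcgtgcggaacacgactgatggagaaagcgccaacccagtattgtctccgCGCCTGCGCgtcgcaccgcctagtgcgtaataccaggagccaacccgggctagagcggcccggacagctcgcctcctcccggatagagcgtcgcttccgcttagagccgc
Mrps18b (chr17:35916411-35916690, minus strand): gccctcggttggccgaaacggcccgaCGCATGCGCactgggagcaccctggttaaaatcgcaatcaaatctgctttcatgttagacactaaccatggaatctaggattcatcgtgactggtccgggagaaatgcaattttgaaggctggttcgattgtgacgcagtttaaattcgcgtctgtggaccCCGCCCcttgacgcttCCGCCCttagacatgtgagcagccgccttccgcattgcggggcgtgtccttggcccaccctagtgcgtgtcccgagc
Mrps6 (chr16:92058086-92058365, plus strand): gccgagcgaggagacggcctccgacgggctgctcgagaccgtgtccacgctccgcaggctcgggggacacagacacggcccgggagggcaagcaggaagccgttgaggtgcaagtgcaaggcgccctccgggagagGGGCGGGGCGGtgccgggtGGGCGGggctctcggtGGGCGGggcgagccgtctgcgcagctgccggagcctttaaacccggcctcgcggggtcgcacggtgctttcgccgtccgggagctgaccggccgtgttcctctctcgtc
Mrpl9 (chr3:94443086-94443365, plus strand): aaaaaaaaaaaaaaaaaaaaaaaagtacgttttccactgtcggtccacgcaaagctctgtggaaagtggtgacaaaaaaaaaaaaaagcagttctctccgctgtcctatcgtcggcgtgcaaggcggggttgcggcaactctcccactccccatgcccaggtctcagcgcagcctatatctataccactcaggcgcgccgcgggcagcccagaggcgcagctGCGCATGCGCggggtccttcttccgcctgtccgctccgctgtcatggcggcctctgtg

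In *Mrpl12* the NRF-1 letters began 80 bases before the start, and in *Mrps18b* 224 bases before it. *Mrpl9* held overlapping matches on both strands, which began 28 and 27 bases before the start. The window of *Mrps6* had no NRF-1 match and 4 matches to GGGCGG. RefSeq promoters of 300 bases (250 before and 50 after the start) were found for 69 of the 78 members. Of these, 16 members (23.2%) held the NRF-1 letters, against 13.4% of 9145 tested genes with a promoter and 6.25% of all 32851 promoters. CCGGAAG, the letters searched for the ETS family to which NRF-2 (GABP) belongs, stood in 26 members (37.7%), against 17.9% of tested genes and 8.86% of all promoters. AANATGGCG, searched for YY1, stood in 11 members (15.9%), against 5.43% and 2.38%. At least 1 of these 3 motifs stood in 43 members (62.3%), against 31.5% of tested genes. The members lay below the tested genes for GGGCGG (34 members, 49.3%, against 64.0% and 35.7% of all promoters). For the E-box CACGTG the share was 7.25% (5 members), against 10.8% of tested genes and 7.15% of all promoters. For the cyclic AMP response element TGACGTCA it was 2.90% (2 members), near the 3.31% of tested genes and 1.79% of all promoters. Both of these shares rest on few members. A match is a description of letters in this window, and binding was not measured. Members with and without the NRF-1 letters had nearly the same median log2 fold change between liver and lung (1.54 for 16 members and 1.55 for 49).

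Levels between genes were compared in TPM, a share of the library's transcripts that takes transcript length into account. Over the 74 members that passed the filter on low counts, the middle member had a median of 40.4 TPM in liver, 35.6 TPM in lung and 67.5 TPM in kidney. In TPM, kidney held the highest median for 69 of the 74 members, whereas on TMM-scaled counts 49 of the 74 had the higher value in liver than in kidney. The 45S ribosomal RNA precursor *Rn45s* together with *Lars2* took between 0.206% and 90.5% of the counts of a library (medians 43.2% in liver, 24.1% in lung and 32.3% in kidney). The median TPM of the members in a library ran in liver from 11.5 to 57.3, in lung from 7.61 to 45.7 and in kidney from 29.1 to 97.1, and the lowest value in each tissue came from the library with the largest share of these 2 genes.

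**Figure D1:**
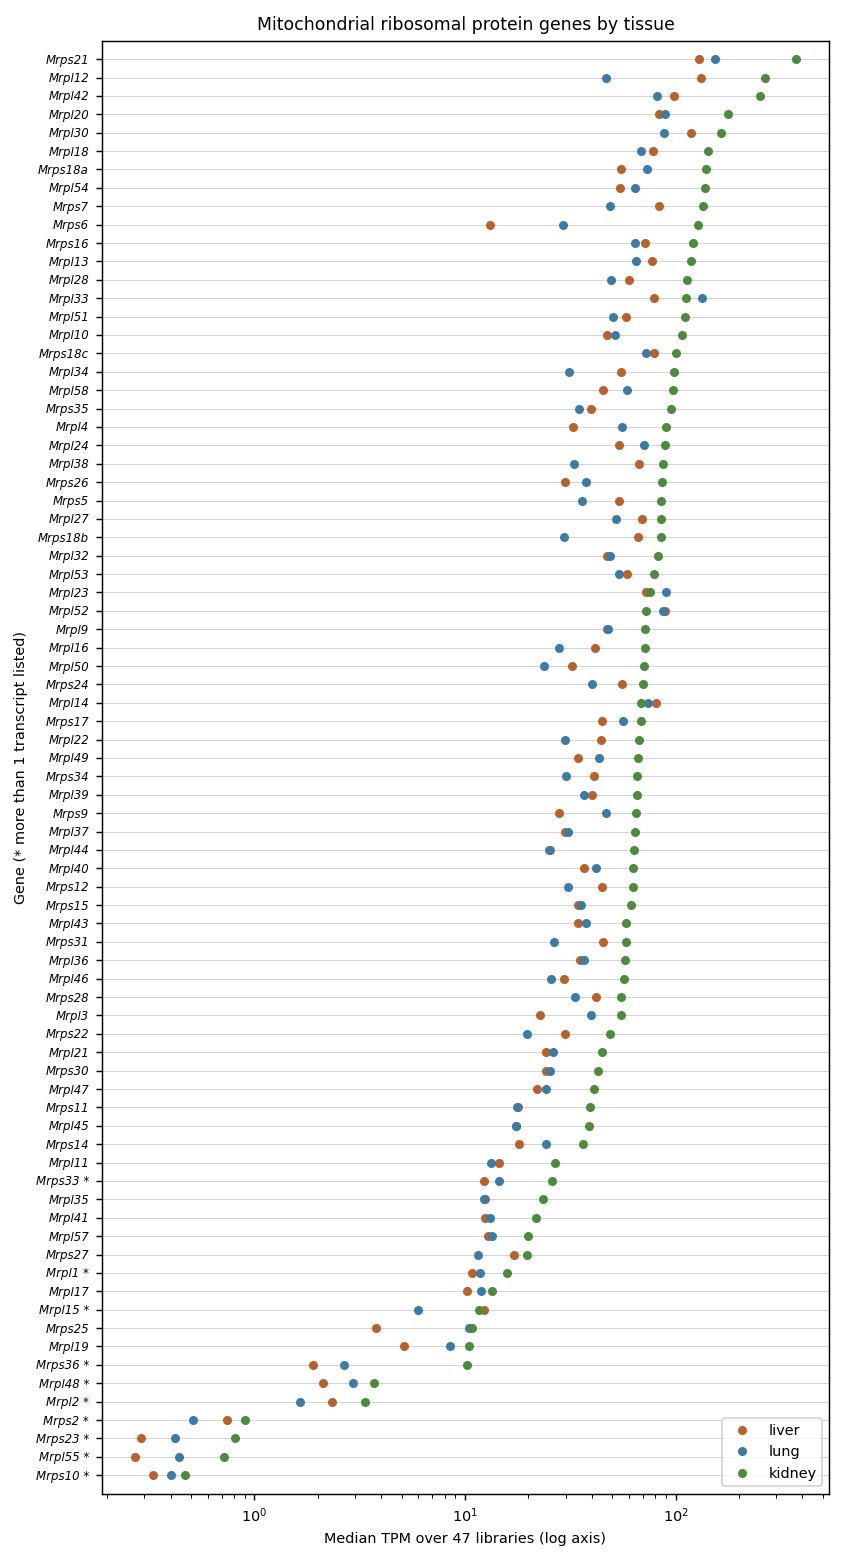
Median TPM over 47 libraries for each of the 78 members, on a log axis, with 1 coloured point per tissue and members ordered by their kidney value. The kidney points lie to the right for 69 of the 74 tested members, *Mrps21* is at the top, and the 10 members with more than 1 listed transcript (asterisks) have kidney medians of at most 26.0 TPM.

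*Mrps21*, a small-subunit protein with a bacterial counterpart, was the most abundant member in lung (45.4 to 273 TPM, median 154) and in kidney (156 to 665 TPM, median 374), and in liver it was second to *Mrpl12* (median 129). Its annotated transcript is short, and 40.5% of its 50-base windows occurred at more than 1 place in the genome, so its level is uncertain. *Mrpl12*, whose protein forms the stalk of the large subunit and is also known to bind the mitochondrial RNA polymerase, spanned 38.5 to 223 TPM in liver (median 132), 6.02 to 76.0 TPM in lung (median 46.8) and 81.9 to 399.9 TPM in kidney (median 264). *Mrpl42*, *Mrpl20* and *Mrpl30* completed the 5 highest in kidney, with medians of 252.5, 177 and 165 TPM, and *Mrpl52* (88.9 TPM) was among the 5 highest in liver. In lung the order differed, and *Mrpl33* (median 133 TPM) and *Mrpl23* (89.97 TPM) followed *Mrps21*. Adjacent members in these orders overlapped widely across libraries.

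The lowest values belonged to genes for which the files list several transcripts. The 68 members with 1 listed transcript had medians of 43.0 TPM in liver, 37.1 in lung and 70.3 in kidney, and the 10 with more had 2.005, 2.15 and 3.54. The study counted reads that aligned to a single place, and reads shared by transcripts of a gene may have been lost, so the low level of these 10 members is uncertain. Over the whole series a split in the same direction was seen on another measure. There, 50.8% of the 18311 genes with 1 transcript and 24.5% of the 6112 genes with more had a kidney median above 1 TPM. The sizes of these splits cannot be compared, and the loss of shared reads was not tested. *Mrpl55*, *Mrps2*, *Mrps10* and *Mrps23* did not pass the filter, and their kidney medians were 0.72, 0.90, 0.47 and 0.81 TPM. *Mrps10* had at most 3 counts in 43 liver, 39 lung and 37 kidney libraries. Of the tested members in this group, *Mrpl2*, *Mrpl48* and *Mrps36* were the lowest, with kidney medians of 3.36, 3.71 and 10.3 TPM. Of the members with 1 transcript, *Mrpl19* (5.12, 8.48 and 10.4 TPM in liver, lung and kidney) and *Mrps25* (3.77, 10.4 and 10.8 TPM) were the lowest in liver, and among members with more transcripts *Mrpl15* was the next lowest in lung (5.97 TPM). In the annotation, *Mrps25* shares 58.2% of its exon bases with *Nr2c2* and *Mrpl19* shares 39.2% with *Gcfc2*, both on the opposite strand, and the strand setting of the counting is not given in the sources used here.

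Tissues were compared with limma-voom on TMM-scaled counts (trimmed mean of M-values, which assumes that most genes are alike between libraries) of all genes tested, with strain as a block. A gene was called at q ≤ 0.1 (Benjamini-Hochberg over all genes tested) and at least a 2-fold change. For liver against lung, 67 of 74 members were called with the higher level in liver and 0 with the higher level in lung. Over all genes tested, 23.9% were called higher in liver and 31.0% higher in lung. The median log2 fold change of the members was 1.56, against -0.06 for all genes, and every member had a positive value, from 0.17 to 2.93. At an unadjusted p under 0.05, limma-voom placed 74 members higher in liver and 0 higher in lung, and edgeR and DESeq2 also called 0 higher in lung. Liver exceeded lung in all 47 mice for 63 members.
The count depended on how the libraries were scaled. With DESeq2 size factors 59 members were higher in liver, with total counts 4 were higher in liver and 1 in lung, and on log2(TPM + 1) 2 were higher in each. Over all genes the shares called were 19.9% toward liver and 34.9% toward lung with DESeq2 size factors, 9.78% and 61.6% with total counts, and 8.28% and 57.5% on log2(TPM + 1). Between TMM and log2(TPM + 1) the median over all genes moved from -0.06 to -1.21 and that of the members from 1.56 to 0.10, so that their distance from the median gene was 1.61 and 1.31. The median member stood above the median gene on each of these scales. A new library factor moves all genes of a library together, so DESeq2 size factors and total counts could hardly change this distance. Without the filter on low counts, which changes the genes compared, the distance was 1.19 on TMM-scaled counts. The number of members past the threshold and the sign of many members moved with the scaling. Below 0 were 22 of the 74 members with total counts and 31 on log2(TPM + 1).

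*Mrpl12* had the largest difference. In CPM (counts scaled to library size after TMM), liver libraries had 71.1 ± 15.03 (SD, n = 47) and lung libraries 9.23 ± 1.98. The limma-voom log2 fold change was 2.93 (standard error 0.06, q = 5.6e-71). The lowest liver value, 32.2 CPM, lay above the highest lung value, 13.5 CPM. *Mrps18b* followed, at 43.2 ± 7.80 against 6.53 ± 1.21 CPM (log2 fold change 2.73, standard error 0.04, q = 4.0e-82). *Mrpl15*, a large-subunit protein with 3 listed transcripts, and *Mrpl38*, a large-subunit protein without a bacterial counterpart, came next at 2.54 and 2.38. The smallest differences were those of *Mrps25* (0.17, standard error 0.05, higher in liver in 34 of 47 mice), *Mrps6* (0.40, standard error 0.08, 34 of 47), *Mrpl4* (0.73) and *Mrpl3* (0.82). These 4 values were below 0 on total counts and on log2(TPM + 1).

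**Figure D2:**
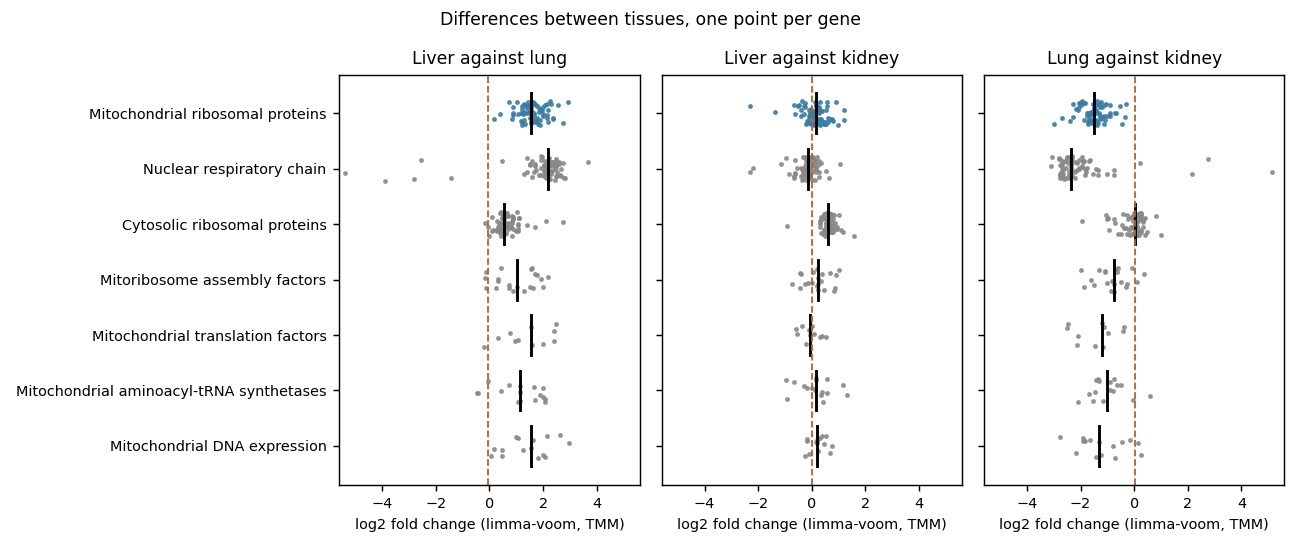
Log2 fold changes (limma-voom on TMM-scaled counts) for the 3 tissue pairs, with 1 point per tested gene, black bars for list medians and a dashed line for the median of all genes tested. The members (blue) centre on 1.56 between liver and lung and on -1.49 between lung and kidney, less far from 0 than the respiratory chain genes (2.18 and -2.35), and the cytosolic ribosomal proteins lie near 0 between lung and kidney.

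For lung against kidney, 65 of 74 members were called with the higher level in kidney and 0 with the higher level in lung, where 20.6% of all genes were called toward kidney and 25.5% toward lung. The median log2 fold change was -1.49 for the members and 0.04 for all genes. The median kept this direction when the libraries were scaled otherwise, with 59 members called toward kidney under DESeq2 size factors, 42 under total counts and 30 on log2(TPM + 1), and 0 toward lung in each, where 18.6%, 15.1% and 12.8% of all genes were called toward kidney. At an unadjusted p under 0.05, limma-voom placed 74 members toward kidney and 0 toward lung, and edgeR also called 0 toward lung. *Mrpl12* again had the largest value, with 9.23 ± 1.98 CPM in lung against 74.7 ± 14.2 in kidney (-3.01 on the log2 scale, standard error 0.06, q = 8.1e-72), and the ranges of the tissues did not overlap. *Mrps6* (-2.69), *Mrps36* (-2.39) and *Mrpl34* (-2.29) followed. The members closest to equal were *Mrpl23* (-0.32), *Mrpl52* (-0.33), *Mrpl14* (-0.46) and *Mrpl33* (-0.53), all large-subunit proteins, with kidney higher in 40, 34, 43 and 42 of 47 mice, and these 4 had values above 0 on log2(TPM + 1).

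For liver against kidney, 2 members were called toward each tissue. Of all genes, 15.6% were called toward liver and 20.8% toward kidney. The median log2 fold change was 0.14 on TMM-scaled counts, near the median of all genes (-0.003). Without a minimum fold, 63 members passed q ≤ 0.1, 42 toward liver and 21 toward kidney, and the share of all genes is not given here. On total counts the median was -0.80 with 24 members higher in kidney, and on log2(TPM + 1) it was -0.81 with 22, while the median of all genes moved to -0.95 and -0.72 and 47.8% and 34.6% of them were called toward kidney. The median member differed from the median gene by 0.15 on TMM-scaled counts and by -0.09 on log2(TPM + 1). On TMM-scaled counts without the filter on low counts it differed by -0.22.
*Mrpl52* and *Mrpl14*, both large-subunit proteins, were the 2 members called toward liver on TMM-scaled counts. *Mrpl14* stood at 28.05 ± 5.79 CPM in liver against 12.3 ± 2.67 in kidney (1.20, standard error 0.05, q = 4.7e-39), and *Mrpl52* had 20.5 ± 4.12 and 8.71 ± 1.79 CPM (1.21, standard error 0.06, q = 6.1e-36). Both were higher in liver in 47 of 47 mice. On total counts their log2 fold changes were 0.25 and 0.28, and on log2(TPM + 1) 0.23 and 0.26, below the fold threshold. *Mrpl15* (0.96) and *Mrpl23* (0.92) lay next to them. At the other end, *Mrps21* (-0.67) and *Mrpl4* (-0.64) followed *Mrps6* and *Mrps36*, the 2 members called toward kidney.

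*Mrps6* was the member that departed most from the others. Its protein is a small-subunit protein with a bacterial counterpart. Expression was 3.55 to 23.4 TPM in liver (median 13.1), 8.03 to 54.1 in lung (median 29.1) and 55.4 to 395 in kidney (median 127), and every kidney library lay above every liver and lung library. Against liver the log2 fold change was -2.29 (standard error 0.08, q = 5.5e-48) and against lung it was -2.69 (standard error 0.08, q = 2.7e-54), with higher values in kidney in 47 of 47 mice in both. The gene occupies chr16:92058515-92112472 of NCBIM37 on the forward strand, and 159 of its exon bases, 18.8% of them and all in its first exon, are also annotated to *Slc5a3*, which lies on the same strand and encodes the sodium myo-inositol cotransporter. *Slc5a3* is known as an osmolyte transporter that rises in hypertonic cells such as those of the renal medulla.
*Slc5a3* had medians of 5.49 TPM in liver, 18.6 in lung and 154 in kidney. Its log2 fold change was -3.71 for liver against kidney and -3.41 for lung against kidney. Across strains, log2 CPM of the 2 genes correlated in kidney (r = 0.737, permutation p = 1e-05, the smallest the permutations can give, q = 6.0e-05, rho 0.634, permutation p for rho 2.0e-05) and in lung (r = 0.579, permutation p = 2.0e-05, q = 6.0e-05, rho 0.534, permutation p for rho 1.5e-04). No correlation was resolved in liver (r = 0.243, permutation p = 0.101, q = 0.121, rho 0.243, permutation p for rho 0.0998). Leaving out the 2 most extreme strains (those farthest from the median) gave r of 0.608 in kidney, 0.5001 in lung and 0.3752 in liver. Adjustment was over 6 correlations, the other 3 being those of *Mrpl12* with its downstream neighbour *Slc25a10*, the mitochondrial dicarboxylate carrier, with r of 0.0652 for liver, 0.371 for lung and 0.348 for kidney (permutation p = 0.662, 0.0101 and 0.0166, q = 0.662, 0.0203 and 0.0249, rho 0.211, 0.279 and 0.572, permutation p for rho 0.154, 0.0580 and 4.0e-05, and r without the 2 farthest strains 0.0563, 0.261 and 0.623). *Slc5a3* was chosen after its values were seen, and how far reads from the shared exon enter the *Mrps6* counts was not tested.

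**Figure D3:**
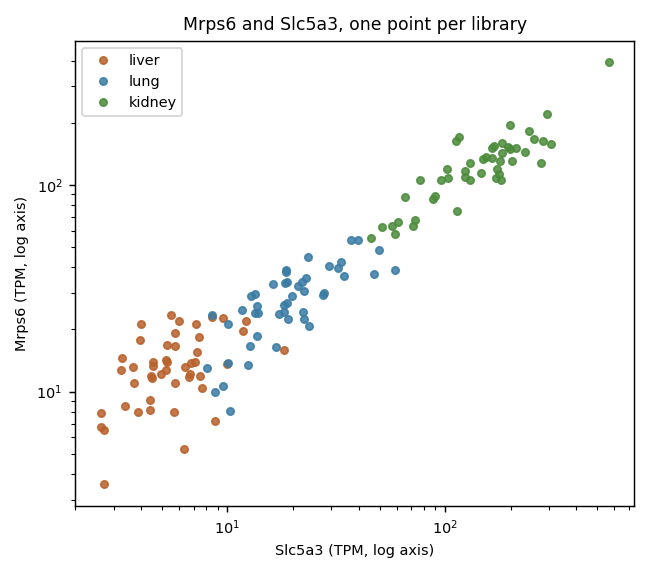
TPM of *Mrps6* against TPM of *Slc5a3* in each library, on log axes, coloured by tissue. The kidney libraries (55.4 to 395 TPM of *Mrps6*) form a group above liver and lung, and strains with more *Slc5a3* had more *Mrps6* within kidney (r = 0.737 on log2 CPM) and within lung (r = 0.579).

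*Mrps18a*, *Mrps18b* and *Mrps18c* are homologs of the single bacterial protein S18. They differed in their pattern over tissues. *Mrps18b* had 66.4, 29.4 and 85.01 TPM in liver, lung and kidney, *Mrps18c* had 79.3, 72.4 and 99.9 TPM, and *Mrps18a* had 54.8, 73.2 and 139 TPM (medians). The log2 fold change between liver and lung was 2.73 for *Mrps18b*, 1.66 for *Mrps18c* and 1.18 for *Mrps18a*, with standard errors of 0.04, 0.04 and 0.05, so the gaps were many times these errors. *Mrps18b* and *Mrps18c* were higher in liver than in kidney (0.68 and 0.61, below the fold threshold), and *Mrps18a* had a value of -0.31. Windows of 50 bases that occur at more than 1 place made up 49.9% of the *Mrps18b* transcript, 23.0% of *Mrps18c* and 0% of *Mrps18a*.
*Mrps36* had 0 to 9.95 TPM in liver, 0 to 8.04 in lung and 2.43 to 28.8 in kidney (medians 1.89, 2.66 and 10.3), and it was called higher in kidney than in liver (-1.36, standard error 0.13, q = 5.8e-17). Its counts were few (medians of 5, 7 and 20 in a library), and 73.0% of its windows occurred at more than 1 place.

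Members were also grouped by subunit and by whether they have a bacterial counterpart. The 50 tested proteins of the large subunit had a median of 1.55 between liver and lung and -1.44 between lung and kidney, and the 23 of the small subunit had 1.74 and -1.54. The 43 tested members with a bacterial counterpart had 1.61 and -1.44, and the 30 without one had 1.56 and -1.52. The medians of these groups lay within the spread of each group, which for the large subunit ran from 0.73 to 2.93.

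Genes that work with the mitochondrial ribosome were compared from lists drawn up from known function. All 5 subunits with other symbols (*Dap3*, *Ptcd3*, *Aurkaip1*, *Chchd1* and *Gadd45gip1*) were called toward liver against lung and toward kidney against lung on TMM-scaled counts, with medians of 1.56 and -1.21. The largest value was that of *Gadd45gip1* (1.90) and the smallest that of *Dap3* (1.25). Of 21 tested assembly factors, 11 were higher in liver than in lung (median 1.04), led by *Mtg1*, a GTPase of large-subunit assembly (2.19), *Rnmtl1*, a methyltransferase of the large ribosomal RNA (1.98), and *Tfb1m*, a dimethyltransferase of the small ribosomal RNA (1.93). Of 11 translation factors, 7 were higher in liver (median 1.56), among them the elongation factors *Gfm1* (2.47) and *Tufm* (2.39) and *Taco1*, an activator of cytochrome c oxidase translation (2.40). Of 16 mitochondrial aminoacyl-tRNA synthetases, 11 were higher in liver (median 1.14), with *Nars2* at 2.07, *Lars2* at 2.06 and *Sars2* at 2.001, although *Lars2* carries the unusual counts described above. For mitochondrial DNA and RNA metabolism, 11 of 15 were higher in liver (median 1.54), with *Top1mt*, the mitochondrial topoisomerase (2.96), *Lrpprc*, which stabilises mitochondrial messenger RNA (2.62), and *Fastkd1*, which regulates mitochondrial RNA (2.13). Against kidney, 5, 8, 8, 8 and 9 genes of the lists were called toward kidney, in the order given. With limma-voom 0 genes of these 5 lists were called toward lung in either comparison, and at an unadjusted p under 0.05 the numbers toward lung against liver were 0, 1, 1, 2 and 0. These counts are on TMM-scaled counts, and with DESeq2 size factors 5, 10, 6, 7 and 8 genes were called toward liver and 0 toward lung. On log2(TPM + 1) the medians between liver and lung were 0.07, -0.41, 0.09, -0.28 and 0.06, so the sign of the assembly factors and of the synthetases flipped. On this scale 0, 4, 2, 3 and 0 genes were called toward lung and 0, 0, 0, 0 and 2 toward liver. With total counts 0, 6, 2, 3 and 2 were called toward lung and 0, 0, 3, 0 and 2 toward liver. Of all genes, 57.5% and 61.6% were called toward lung on these 2 scales, and 8.28% and 9.78% toward liver. Relative to the median gene the list medians on log2(TPM + 1) were 1.28, 0.80, 1.30, 0.93 and 1.27.
Only 6 of 10 regulators of mitochondrial biogenesis were tested. *Ppargc1b*, a coactivator of respiratory genes (2.23 between liver and lung, -2.40 between lung and kidney), and *Esrra*, the estrogen-related receptor alpha (1.18 and -2.30), were called in both comparisons with lung on TMM-scaled counts, which gave the 6 a median of 0.65 between liver and lung and -0.13 between lung and kidney (-0.82 and 0.38 on log2(TPM + 1), with the signs reversed). The coactivator *Pprc1* (1.04) and *Gabpb1*, which encodes the partner subunit of *Gabpa* in NRF-2 (1.08), were called the other way, toward lung against kidney. The values of *Gabpa*, a subunit of NRF-2, were 0.98 and -0.38. *Nrf1*, which encodes NRF-1, had medians of 0.09 to 0.43 TPM and was not tested.

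The members were then set against the respiratory chain and the cytosolic ribosome. The 72 tested nuclear genes of the respiratory chain had a median log2 fold change of 2.18 between liver and lung (66 called toward liver, 5 toward lung) and of -2.35 between lung and kidney (66 called toward kidney, 3 toward lung). On log2(TPM + 1) these medians were 0.64 and -1.69. The 5 toward lung were *Cox4i2* (-5.39), *Cox6a2* (-3.91), *Cox7a1*, *Cox8b* and *Ndufa4l2*, isoforms known from lung, muscle or hypoxic cells, and *Uqcrq*, a complex III subunit, had the largest positive value (3.68). The 69 tested cytosolic ribosomal proteins had medians of 0.56 and 0.03. Between liver and lung 11 were called toward liver and 0 toward lung, and between lung and kidney 2 toward kidney and 1 toward lung. However, on log2(TPM + 1) the first median flipped to -0.93, with 1 called toward liver and 22 toward lung (1 and 12 with total counts). Of all genes, 8.28% were called toward liver and 57.5% toward lung on log2(TPM + 1), and 9.78% and 61.6% with total counts. Relative to the median gene, the cytosolic ribosomal median was 0.28 on log2(TPM + 1). *Rps27l* (2.73), *Rpl36al* (2.12) and *Rps2* (1.71) were the largest. Between liver and kidney the respiratory chain had a median of -0.14 and the cytosolic ribosomal proteins of 0.60. There, 3 and 0 genes were called toward kidney and 1 and 4 toward liver. With total counts these medians were -1.09 and -0.34, and on log2(TPM + 1) they were -1.06 and -0.36, so that the sign of the cytosolic ribosomal proteins flipped. On these 2 scales 44 and 42 respiratory chain genes were called toward kidney, beside 47.8% and 34.6% of all genes.
Within a library, the median of the members less the median of the respiratory chain genes (log2 CPM) does not depend on the scaling of that library. It was -1.18 ± 0.14 (SD, n = 47) for lung libraries, -1.88 ± 0.15 for liver and -2.01 ± 0.15 for kidney. The difference was less negative in lung than in liver and than in kidney in 47 of 47 mice, so the gap between members and respiratory chain was smaller in lung. Against the cytosolic ribosomal proteins the members stood at -3.68 ± 0.16 (lung), -2.77 ± 0.16 (liver) and -2.22 ± 0.12 (kidney), and the order of the tissues was the same in 47 of 47 mice for each pair. The members were chosen together and their genes are not independent, so no test was made on these scores.

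**Figure D4:**
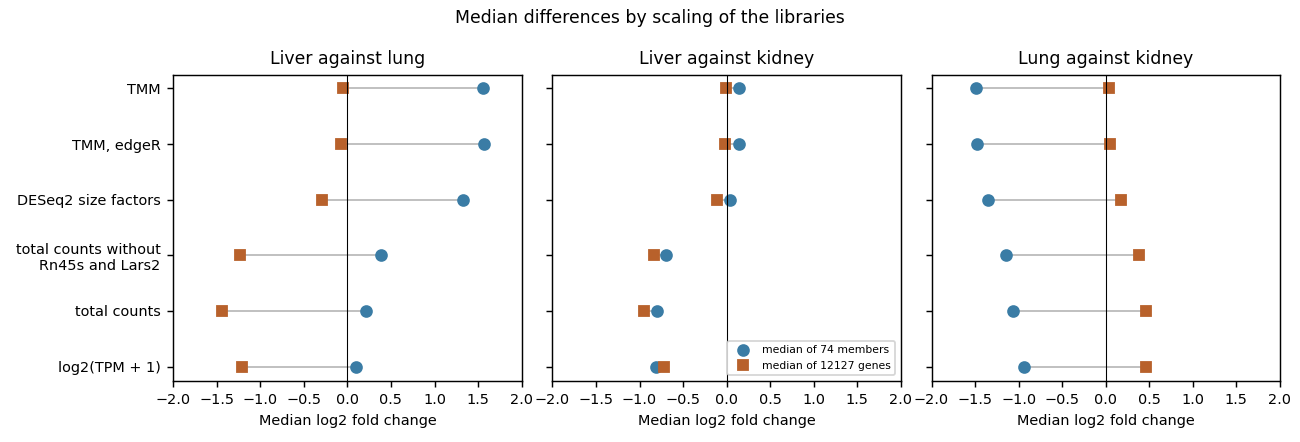
Median log2 fold change of the 74 tested members (circles) and of all genes tested (squares) under 6 ways of scaling or testing, in 1 panel per tissue pair. The distance between circle and square stays near 1.6 in the liver and lung panel (1.31 on log2(TPM + 1)), while both medians move to the left from TMM (1.56 for members) to log2(TPM + 1) (0.10). New library factors move all genes of a library together, so they can hardly change this distance.

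Tissue markers matched the labels in their summed level. The summed TPM of 6 liver markers was 33907 to 145913 in liver libraries and at most 2303 in the others, that of 6 lung markers was 18620 to 162090 in lung and at most 370 in the others, and that of 6 kidney markers was 29329 to 163207 in kidney and at most 1627 in the others. Lung libraries also held cardiac muscle markers, a cell type rich in mitochondria. Their 6 genes summed to 152 to 3403 TPM in lung, to at most 20.6 in liver and to at most 15.4 in kidney, with *Myl7* and *Myl4* at medians of 448 and 290 TPM in lung and *Tnnt2* at 0. Fat markers (6 genes) reached 845 TPM in a kidney library and 208 in a lung library, with medians of 46.7 and 30.3. Single libraries also reached 4173 TPM of exocrine pancreas markers (liver, median 3.13), 2086 TPM of adrenal cortex markers (liver, median 4.35) and 1577 TPM of skeletal muscle markers (lung, median 74.8). The part of these cells in the values of the members was not tested, and fewer mitochondria-rich cells and less RNA per cell cannot be told apart in whole tissue.

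Neighbouring genes were examined because many members start close to another gene. In the NCBIM37 annotation, 29 of 78 members (37.2%) had the start of a protein-coding gene on the opposite strand within 1000 bases, against 14.3% of 11485 tested genes and 10.8% of 22380 annotated genes. *Mrpl46* and *Mrps11*, both members, start 412 bases apart on chromosome 7. For 24 pairs of a member with a tested gene outside the family, the median log2 fold change between liver and lung was 1.56 for the members and 0.08 for their partners, and the member had the larger value in 20 pairs. Between lung and kidney the medians were -1.46 and -0.06, with the lower value in the member in 22 pairs. Of the 24 partners, 9 were called toward liver against lung and 2 toward lung, beside 23.9% and 31.0% of all genes.
*Mrps18b* starts 45 bases from *Ppp1r10*, a regulatory subunit of protein phosphatase 1, whose log2 fold change was 0.39 beside 2.73 for *Mrps18b*. *Mrps34* starts 29 bases from *Eme2*, which has a role in DNA repair, with -0.03 beside 1.93. Of partners with mitochondrial functions, *Sars2*, 171 bases from *Mrps12*, had 2.001 beside 2.08, *Ptcd2*, 108 bases from *Mrps27*, had 1.56 beside 2.20, *Ndufb5*, a complex I subunit 157 bases from *Mrpl47*, had 2.25 beside 1.55, and *Peo1*, the mitochondrial DNA helicase 369 bases from *Mrpl43*, had 2.01 beside 1.45. Partners called toward liver also included *Pnpla7*, a lysophospholipase (2.66 beside 1.56 for *Mrpl41*), *Fau*, which encodes a cytosolic ribosomal protein (1.42 beside 1.32 for *Mrpl49*), *Tcp1*, a chaperonin subunit (1.14 beside 1.87 for *Mrpl18*), and *Psma2*, a proteasome subunit (1.03 beside 1.49 for *Mrpl32*). The 2 partners called toward lung were *C920021L13Rik*, 3 bases from *Mrps21* (-4.86 beside 1.28), and *Lrrc46*, 153 bases from *Mrpl10* (-1.05 beside 1.42). These pairs were named after their values were seen, and no test was made of the difference between the kinds of partner.

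Variation between strains was smaller for most members than for the median gene tested. The SD of log2 CPM over 47 strains had a median of 0.28 in liver, 0.27 in lung and 0.26 in kidney over the members, against 0.52, 0.38 and 0.41 over all genes. It lay below the median of all genes for 71, 62 and 68 of the 74 members. The genes tested had lower median levels than the members (5.25, 17.71 and 10.96 TPM in liver, lung and kidney), and their counting SD is not given here. Median SD was 0.28, 0.30 and 0.25 for the cytosolic ribosomal proteins and 0.27, 0.33 and 0.30 for the respiratory chain genes. A low SD was therefore not particular to the members. Counting alone accounts for a median SD of 0.15, 0.15 and 0.11 for the 68 members with 1 transcript, whose median SD was 0.27, 0.27 and 0.26. *Mrpl51* varied least in liver (0.17, with 51.5 ± 6.10 CPM), *Mrps30* in lung (0.15) and *Mrpl49* in kidney (0.16). The largest SD were those of *Mrps36*, *Mrpl2* and *Mrpl48*, between 0.69 and 1.27, where counting alone would give 0.38 to 0.84. After these, *Mrps12* varied most in liver (0.48, counting 0.17), *Mrps11* in lung (0.47, counting 0.27) and *Mrps14* in kidney (0.48, counting 0.12). Pairs of members were weakly alike across strains within a tissue, with a median r over 2701 pairs of 0.164 in liver, 0.102 in lung and 0.187 in kidney, against 0.00838, 0.0152 and 0.00375 over all pairs of tested genes. These are descriptions over libraries that share their depth and composition.

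To ask whether a strain high in one tissue was high in another, rank inverse normal values of TMM-normalized TPM were correlated between tissues (Pearson's r, 100000 permutations, two-sided, q over all genes and all 3 pairs). Of 74 members, 14 (18.9%) were positively correlated between liver and lung, 17 (23.0%) between liver and kidney and 14 (18.9%) between lung and kidney. At an unadjusted p under 0.05 the numbers were 17, 23 and 22, with 0 negative. Over all genes the shares correlated at q ≤ 0.1 were 12.0%, 17.0% and 15.2%, to be set beside the 14, 17 and 14 members. The shares of all genes at an unadjusted p under 0.05 are not given here. The median r of the members was 0.13, 0.19 and 0.16, against 0.12, 0.15 and 0.14 over all genes. The shares of the members lay close to those of all genes, and 3 members (4.05%) were correlated in all 3 pairs against 4.87% of all genes. On TPM without TMM the members correlated at q ≤ 0.1 were 0, 8 and 2, and 0 in all 3 pairs, while the shares over all genes at q ≤ 0.1 were 2.41%, 8.34% and 4.49%. At an unadjusted p under 0.05 of the permutation test the members numbered 7, 24 and 12, and the shares of all genes are not given here.

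The 3, none of which held in all pairs on TPM without TMM, were *Mrpl9*, *Mrpl50* and *Mrpl38*, all large-subunit proteins. For *Mrpl9*, which has a bacterial counterpart and occupies chr3:94247240-94255052 of NCBIM37 on the forward strand, r was 0.644 between liver and lung (permutation p = 1e-05, the smallest the permutations can give, q = 6.0e-04, rho 0.691, permutation p for rho 1e-05), 0.605 between liver and kidney (permutation p = 3.0e-05, q = 0.00131, rho 0.578, permutation p for rho 3.0e-05) and 0.480 between lung and kidney (permutation p = 6.3e-04, q = 0.0114, rho 0.464, permutation p for rho 0.00119). Leaving out the 2 most extreme strains gave r of 0.623, 0.556 and 0.475. Strain CC039 was high in every tissue, with 67.8 CPM in liver and 49.6 CPM in kidney, the highest of the 47 strains in both, and 18.2 CPM in lung, where it ranked 40 from the lowest. Strain CC044 was low throughout, with 35.7, 9.34 and 23.0 CPM in liver, lung and kidney. Over all strains, liver spanned 23.6 to 67.8 CPM, lung 8.47 to 19.9 CPM and kidney 23.0 to 49.6 CPM.
For *Mrpl50*, a large-subunit protein without a bacterial counterpart, r was 0.540, 0.571 and 0.464 in the same order (permutation p = 1.4e-04, 1e-05 and 9.4e-04, q = 0.00397, 6.0e-04 and 0.0150, rho 0.569, 0.616 and 0.515, permutation p for rho 7.0e-05, 2.0e-05 and 2.0e-04), and 0.566, 0.591 and 0.429 without the 2 farthest strains. Its values ran from 15.02 to 71.0 CPM in liver and from 23.9 to 77.4 CPM in kidney, with CC061 at 23.1 and 28.1 CPM and CC046 at 53.2 and 68.4 CPM. For *Mrpl38*, r was 0.396, 0.467 and 0.393 (permutation p = 0.00566, 8.9e-04 and 0.00615, q = 0.0526, 0.0145 and 0.0555, rho 0.401, 0.425 and 0.412, permutation p for rho 0.00546, 0.00306 and 0.00395), and 0.307, 0.389 and 0.385 without the 2 farthest strains. CC012 had the lowest value of *Mrpl38* in liver (23.7 CPM) and in kidney (22.5 CPM), and CC019 had 72.1 and 57.5 CPM.
Next by their lowest r of the 3 pairs were *Mrps28* (0.330), *Mrpl10* (0.303) and *Mrpl27* (0.293), each past the threshold in fewer than 3 pairs. *Mrpl27* had r = 0.616 between liver and lung (permutation p = 1e-05, q = 6.0e-04, rho 0.587, permutation p for rho 2.0e-05, and 0.528 without the 2 farthest strains), and 39.6% of its windows occurred at more than 1 place. *Mrpl12* and *Mrps6*, described above for their tissue differences, had lowest r of -0.15 and -0.04.

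**Figure D5:**
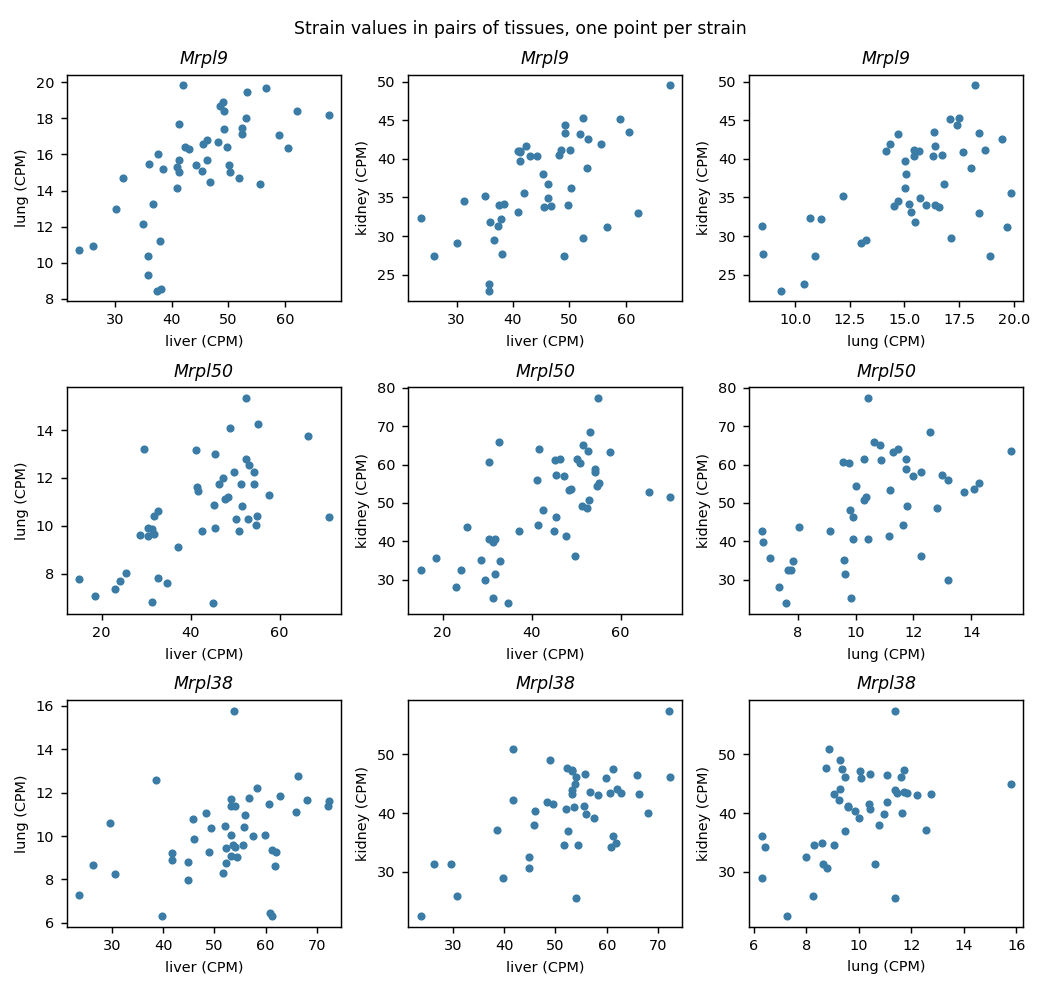
CPM of *Mrpl9*, *Mrpl50* and *Mrpl38* (rows) in 47 strains, with 1 point per strain and 1 tissue pair per column. Strains low in one tissue tended to be low in the other, with r from 0.480 to 0.644 for *Mrpl9*, from 0.464 to 0.571 for *Mrpl50* and from 0.393 to 0.467 for *Mrpl38* on rank inverse normal values.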

How the data were processed

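RNA was sequenced from 141 libraries (47 strains in each of liver, lung and kidney). The authors aligned single-end reads of 50 bases with STAR (2.5.3a in the submitters' processing notes) to genomes and transcriptomes built for each strain from mm9 (NCBIM37) and quantified genes with RSEM, keeping uniquely aligned reads. The authors deposited an expected count per gene, on the scale of reads and rounded here (25 values were not whole), and a TPM, which scales counts by transcript length and library. Depth ran from 1738046 to 42158454 counts in liver, 2829104 to 17585682 in lung and 3046695 to 15028553 in kidney. Few counts limit precision, and intervals from counts would cover counting error alone.

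Members were all symbols matching the family names. The members and all gene lists were chosen with earlier results of these data known, and so support nothing independently. A filter kept the 12127 genes above 1 CPM in 30% of libraries or more, which were fitted with limma-voom (limma 3.58.1, edgeR 4.0.16, R 4.3.3) with TMM and strain as a replicate block, because the 3 tissues of a strain came from 1 mouse by the study's design. Libraries of a mouse deviated together, with a median r across genes of 0.166, 0.173 and 0.211 for liver and lung, liver and kidney, and lung and kidney. A call needed q ≤ 0.1 together with a 2-fold change in either direction. Correlations used rank inverse normal TMM-normalized TPM. Log2 CPM used a prior count of 1, and log2 TPM pseudocounts of 1 or 0.1. Named members were the 5 highest and 5 lowest per tissue by TPM, the 4 largest and 4 smallest log2 fold changes per pair, the 4 largest SD per tissue, the 6 with the highest lowest r, those correlated in all 3 pairs, *Mrps18a*, *Mrps18b*, *Mrps18c*, *Mrps36* and members that failed the filter, plus 3 genes per list. On simulated data the tissue fit found 200 of 200 changed genes among 12127 with 0 false calls. These data had the same dispersion for all genes, no strain effect and few changed genes, equally up and down. They cannot show how the fit behaves under the differences in scaling seen here. The correlation step found 194 of 200 related genes among 1000 simulated ones with 19 false calls. Alternatives included DESeq2 1.42.0. Promoters and motifs came from RefSeq tables, coordinates and overlaps from GENCODE vM1, and 50-base windows were counted in NCBIM37. Python 3.11.15, numpy 2.4.6, scipy 1.17.1 and pandas 2.3.3 were used. Sequencing batches, genotypes and protein sequences were not analysed here.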

Additional observations from a re-analysis of the deposited data

How the results depend on the processing

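Counts moved with the scaling of the libraries and, between liver and kidney, with the minimum fold. Between liver and lung, 67 members were called with TMM, 5 with total counts and 10 with total counts without *Rn45s* and *Lars2* (chosen after seeing the data). On log2(TPM + 1) 4 were called, and 5 on log2(TPM + 0.1). Toward liver were 67, 4, 9, 2 and 3 of these, and the rest were toward lung. Of all genes, 23.9%, 9.78%, 10.8%, 8.28% and 9.1% were called toward liver. Toward lung were 31.0%, 61.6%, 56.6%, 57.5% and 64.3%. Between liver and kidney, 4 members were called with TMM, 2 toward each tissue. On the other scales all calls were toward kidney. They numbered 24 with total counts, 16 with total counts without *Rn45s* and *Lars2*, 22 on log2(TPM + 1) and 24 on log2(TPM + 0.1). Of all genes, 20.8%, 47.8%, 42.5%, 34.6% and 47.0% were called toward kidney. Toward liver were 15.6%, 8.09%, 8.73%, 6.76% and 7.91%. Without a minimum fold 63 members were called, and the share of all genes is not given here. Between lung and kidney, 65 were called with TMM, 42 with total counts, and 30 and 34 on the 2 TPM scales, all toward kidney. Of all genes, 20.6%, 15.1%, 12.8% and 14.1% were called toward kidney, and 25.5%, 33.4%, 30.7% and 35.6% toward lung. On these scales the large shares of *Rn45s* and *Lars2* and of the most abundant tissue genes enter each library's total, and which of them set the shift was not tested. Without the replicate block the counts were 67, 4 and 65, as with it. Leaving out the 4 strains with a library under 3000000 counts, or, chosen after seeing the data, the 10 strains with a library of at least 75% *Rn45s* and *Lars2*, gave 66 members between liver and lung in either case, 4 between liver and kidney, and 64 and 65 between lung and kidney.

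Members correlated in all 3 tissue pairs numbered 5 on log2 CPM (6.76%, against 6.69% of all genes) and 0 on TPM without TMM. On TPM without TMM the pairs had 0 (liver and lung), 8 (liver and kidney) and 2 (lung and kidney) at q ≤ 0.1 by the permutation test. Over all genes the shares at q ≤ 0.1 were 2.41%, 8.34% and 4.49%, and 1.17% in all 3 pairs. At an unadjusted p under 0.05 of that test the members numbered 7, 24 and 12, and the shares of all genes are not given here. Between liver and lung, 9 members (12.2%) were correlated after taking off the median over members and 9 (12.2%) without the strains of low depth. Over all genes these shares were 11.8% and 10.1%. The cause was not tested.

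Members changed sign on other scales, given as total counts, total counts without *Rn45s* and *Lars2*, log2(TPM + 1) and log2(TPM + 0.1). Between liver and lung all 74 were above 0 with TMM, and 22, 10, 31 and 31 were below 0 on these scales. Named here are only those that changed sign among the 4 largest and 4 smallest log2 fold changes of each pair. Between liver and lung they were *Mrps25* (-1.20, -1.01, -1.12 and -1.29, and -0.067 with DESeq2 size factors and -0.079 with the DESeq2 test), *Mrps6* (-0.94, -0.78, -1.003 and -1.06), *Mrpl4* (-0.62, -0.45, -0.72 and -0.74) and *Mrpl3* (-0.53, -0.36, -0.63 and -0.64). Between lung and kidney they were *Mrpl23* (0.092, 0.027, 0.18 and 0.18) and *Mrpl52* (0.072, 0.017, 0.17 and 0.17), and on the TPM scales *Mrpl14* (0.010 and 0.0060) and *Mrpl33* (0.018 and 0.017). Between liver and kidney the named member was *Mrpl23* (-0.033 with total counts, -0.051 on both TPM scales). Over all 74 members, 49 were above 0 between liver and kidney with TMM, and 3, 4, 3 and 3 on these scales. Depth limits *Mrpl2*, *Mrpl48*, *Mrps36* and the 4 members that failed the filter.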
